A study of Mus musculus with 11 samples.

Results

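The thymus is mostly filled with thymocytes, but a stroma of epithelial cells and fibroblasts holds them. The transcripts of 10 stromal genes were followed in RNA prepared from thymocytes, out of 54418 genes in the table. The genes were listed by name and found by their GENCODE names on GRCm38: the 6 thymic epithelial genes *Foxn1*, *Psmb11*, *Ccl25*, *Krt5*, *Krt8* and *Epcam*, and the 4 mesenchymal genes *Col1a1*, *Col1a2*, *Col3a1* and *Pdgfrb*. The question put to them was how much stromal RNA each thymocyte preparation held and whether that amount differed between genotypes. RNA came from 4 wt mice, 4 mice without *Zmat3* (Zmat3-/-) and 3 mice without *Puma*, *p21* and *Zmat3* (TKO), with no treatment named, between 8 and 12 weeks old and on a C57BL/6-WEHI background. Each was a whole-body deletion present from conception, so stromal cells of the mutant mice carried it as well. Whole thymi were mashed through a filter, RNA was taken from a set number of these cells, and no sorting step was described. Each library stood for 1 mouse.

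Thymic epithelial cells form the meshwork in which T cells mature. The cortex is where thymocytes are positively selected and the medulla is where self-reactive cells are removed. FOXN1, a forkhead transcription factor that is defective in nude mice, is needed for these cells to differentiate, and it drives *Psmb11*, *Ccl25* and other genes of the cortex. Fibroblasts and the mural cells of vessels make the collagen of the capsule and septa. Most thymic stroma stays in the tissue when thymocytes are released by gentle mashing, so such genes serve as a sign of stromal carry-over.

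Upstream windows are shown for 3 members that the results return to: the regulator *Foxn1*, its target *Ccl25* and the collagen gene *Col3a1*. Each covers the 250 bases before a RefSeq start on GRCm38.p6, written 5′ to 3′ on the gene's own strand, and none touches a GENCODE exon. The *Ccl25* window precedes the second of its starts and lies in an intron of longer *Ccl25* transcripts, and the windows of the other two are intergenic. Capitals mark matches, on either strand, to the CCAAT box, to the TATAAA box and to GACGC, the core that FOXN1 recognises, with the complement in capitals where the match was on the other strand.
Foxn1 (chr11:78386609-78386858, minus strand): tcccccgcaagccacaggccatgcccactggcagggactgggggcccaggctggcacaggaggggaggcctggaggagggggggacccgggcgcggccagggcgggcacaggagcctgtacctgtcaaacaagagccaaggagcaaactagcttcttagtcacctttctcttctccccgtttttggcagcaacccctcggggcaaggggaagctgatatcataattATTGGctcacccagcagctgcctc
Ccl25 (chr8:4349338-4349587, plus strand): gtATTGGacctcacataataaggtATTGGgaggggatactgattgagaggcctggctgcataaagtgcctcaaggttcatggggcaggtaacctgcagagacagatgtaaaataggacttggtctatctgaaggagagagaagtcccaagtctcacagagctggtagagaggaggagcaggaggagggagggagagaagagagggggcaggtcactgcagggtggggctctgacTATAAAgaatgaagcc
Col3a1 (chr1:45311288-45311537, plus strand): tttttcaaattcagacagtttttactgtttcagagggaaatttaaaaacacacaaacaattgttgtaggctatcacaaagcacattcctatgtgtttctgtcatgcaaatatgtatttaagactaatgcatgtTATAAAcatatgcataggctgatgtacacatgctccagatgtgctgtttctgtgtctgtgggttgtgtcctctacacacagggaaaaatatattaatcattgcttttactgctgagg
*Foxn1* held 1 CCAAT match, beginning 24 bases before its start. The *Ccl25* window held 2, beginning 248 and 226 bases before the start, and a TATAAA match 16 bases before it. *Col3a1* held a TATAAA match 117 bases before its start. None of these 3 windows held GACGC. Over the 9 windows available for 8 of the members, GACGC was found in 2, the window of *Psmb11* with matches 239 and 62 bases before the start and the window of the first *Ccl25* start with a match 56 bases before it. Of 32817 mouse promoters of the same length, 22.6% held GACGC, 33.8% held CCAAT and 12.4% held TATAAA, so each of these short motifs is common. A match is a description of letters and not of binding.

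Counts of the 11 libraries summed to between 17669715 (TKO mouse 2) and 80207003 (TKO mouse 3), and 3 counts corresponded to 0.174 CPM in the first and 0.0367 CPM in the second. Levels are in CPM, counts scaled to a common library total with TMM factors over all 11 mice. *Zmat3* stood at 9.81 to 27.4 CPM in wt, 5.33 to 6.91 CPM in Zmat3-/- and 7.50 to 8.13 CPM in TKO mice, without overlap between wt and either mutant, at log2FCs of −1.64 (adjusted p = 0.0786) and −1.28 (adjusted p = 0.371) against wt by edgeR. None of the libraries was at 0, and which exons the alleles remove was not used here. *Bbc3*, which encodes PUMA, was counted at 11.9 to 15.8 CPM in TKO against 17.0 to 19.8 CPM in wt mice, and *Cdkn1a*, which encodes p21, at 2.26 to 3.55 CPM against 3.58 to 10.2 CPM. The 12 thymocyte genes, among them *Cd3e*, *Cd4*, *Cd8a* and *Rag1*, summed to 13701 to 17845 CPM in every mouse, as their label says. The libraries of wt mice 1 and 2 stood apart from the other 9. With each gene centred on its mean over the mice, the median log2 CPM of the 20% of genes with the shortest exons lay above that of the 20% with the longest by 1.06 and 0.75 in these libraries, and by −0.38 to −0.01 in the others. Of the members, *Krt5*, *Krt8* and *Epcam* belong to the short genes, and *Ccl25*, *Col1a2* and *Col3a1* to the long ones. Exon length here is that of all annotated exons of a gene together, and the exon length offset used below rests on it. The longest single transcripts of *Ccl25*, *Col1a2* and *Col3a1* have 2549, 5348 and 5564 bases, below the 7277 bases from which genes counted as long. The labels give no sex, and *Xist* was high (501 to 1498 CPM) in 5 mice, wt mice 1 and 2 among them, and low (0.733 to 2.60 CPM) in 6. The members' values against wt are therefore given with and without wt mice 1 and 2. Leaving that pair out left only wt mice low in *Xist*, mice 3 and 4 at 1.73 and 2.60 CPM. Among the mutants, Zmat3-/- mice 1 and 2 (1098 and 1352 CPM) and TKO mouse 1 (1498 CPM) were high in it. Exon length and *Xist* level cannot be told apart in the fits without that pair.

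All 10 genes were detected in each of the 11 mice, with 14 counts at the least (*Col1a1* in wt mouse 3) and 1932 at the most (*Krt8* in wt mouse 2). Scaled to exon length, *Krt8* had the highest level of the 10 in each genotype, 16.4 ± 11.5 CPM per kb (SD, n = 4) in wt, 17.8 ± 2.67 (SD, n = 4) in Zmat3-/- and 15.9 ± 6.09 (SD, n = 3) in TKO mice. *Ccl25*, *Krt5*, *Epcam* and *Psmb11* followed at 2.79 to 5.57 CPM per kb. Their order varied with the genotype and, within a genotype, neighbouring means differed by less than the larger of their SDs. *Foxn1* at 0.597 to 0.925 CPM per kb and the mesenchymal genes at 0.168 to 0.841 CPM per kb were lowest. Measured against the longest transcript in place of all exons, *Ccl25* came second in each genotype at 9.98 to 16.0 CPM per kb, as its exons together are much longer than any 1 transcript. In bulk RNA a lower level can come from fewer cells of a type or from less RNA per cell, and these cannot be told apart here.

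Summed over the 6 epithelial genes, levels were 160.5, 147, 57.8 and 87.9 CPM in wt mice 1 to 4, 122, 94.0, 92.1 and 89.5 CPM in Zmat3-/- mice 1 to 4, and 108, 114 and 55.2 CPM in TKO mice 1 to 3. The means were 113 ± 48.6 CPM (SD, n = 4), 99.3 ± 15.1 CPM (SD, n = 4) and 92.3 ± 32.3 CPM (SD, n = 3), and the groups overlapped. The pair of wt libraries that stand apart had the highest sums of all 11 mice, and wt mouse 3 and TKO mouse 3 had the lowest. The 4 mesenchymal genes summed to 10.6, 14.5, 7.16 and 12.3 CPM in wt, 22.6, 17.6, 22.2 and 25.5 CPM in Zmat3-/- and 20.6, 27.5 and 7.66 CPM in TKO mice. Here no Zmat3-/- mouse lay within the wt range, with means of 22.0 ± 3.27 CPM (SD, n = 4) and 11.1 ± 3.09 CPM (SD, n = 4), whereas the TKO mice, at 18.6 ± 10.05 CPM (SD, n = 3), overlapped with both. TKO mice 1 and 2 lay above all wt mice, and TKO mouse 3, the deepest library, lay beside wt mouse 3. The epithelial sum was 7.16 to 15.2 times the mesenchymal sum in wt mice, 3.51 to 5.38 times in Zmat3-/- mice and 4.15 to 7.20 times in TKO mice, so that this ratio did not overlap between wt and Zmat3-/- mice. Without wt mice 1 and 2, the mean wt sums were 72.8 CPM for the epithelial and 9.72 CPM for the mesenchymal genes. The ratio of the Zmat3-/- to the wt epithelial mean then moved from 0.877 to 1.36, and that of the TKO to the wt mean from 0.815 to 1.27.

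**Figure D1:**
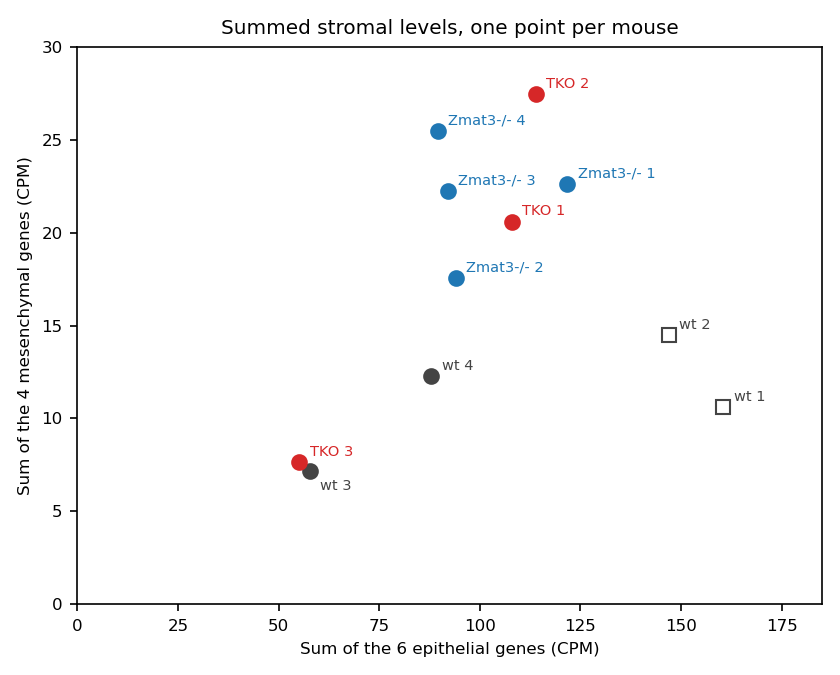
Summed level of the 6 epithelial genes (x axis, CPM) against that of the 4 mesenchymal genes (y axis, CPM), 1 point per mouse, with wt in grey, Zmat3-/- in blue and TKO in red, and open squares for wt mice 1 and 2. The 4 Zmat3-/- mice sit between 17.6 and 25.5 CPM on the y axis, above the 4 wt mice at 7.16 to 14.5 CPM, and wt mice 1 and 2 lie farthest right, at 160.5 and 147 CPM.

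No member was called between Zmat3-/- and wt mice. A call needed an adjusted p below 0.05 and an absolute log2FC above 1.5, which 43 of 13494 genes tested (0.319%) met. None of the 10 reached the adjusted p at any fold (0.763% of all genes did so), and 4 of 10 had an unadjusted p below 0.05, against 16.1% of all genes, all by edgeR's quasi-likelihood test with Benjamini-Hochberg adjustment. DESeq2 on the same counts called no member either (0.912% of all genes), and it put *Ccl25*, *Col1a2* and *Col3a1* past the adjusted p, 3 of 10 where 8.04% of all genes were past it. The mesenchymal members were higher in Zmat3-/- mice (4 of 4, median log2FC 1.15) and the epithelial members split evenly (3 of 6 higher, median log2FC −0.0058), beside 46.8% of all genes higher and a median of −0.026. Without wt mice 1 and 2, *Col1a2* and *Col3a1* were called (3.13% of all genes) and 8 of 10 members passed the adjusted p, where 33.0% of all genes did. Epithelial members then had a median log2FC of 0.97, with 4 of 6 higher. Of all 10, 8 were higher (49.6% of all genes) and 7 were higher without overlap (26.7%), with 2 wt mice left.

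*Foxn1* was counted at 2.23, 2.47, 1.56 and 1.42 CPM in wt mice 1 to 4, 3.86, 2.24, 2.74 and 3.06 CPM in Zmat3-/- mice 1 to 4 and 3.33, 3.37 and 1.26 CPM in TKO mice 1 to 3. Zmat3-/- mouse 1 was highest and wt mice 3 and 4 were low, and the groups overlapped. *Foxn1*, the regulator of the thymic epithelial programme, stood at 1.92 ± 0.511 CPM on average (SD, n = 4) for wt and 2.97 ± 0.679 CPM on average (SD, n = 4) for Zmat3-/- mice, and its log2FC was 0.63 (SE 0.267, adjusted p = 0.297) with a 95% interval of 0.020 to 1.24. Without wt mice 1 and 2 it was 1.00 (SE 0.296, adjusted p = 0.0264).

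*Psmb11* was counted at 31.1, 24.0, 3.67 and 8.54 CPM in wt mice 1 to 4, 19.3, 14.4, 15.3 and 14.4 CPM in Zmat3-/- mice 1 to 4 and 15.0, 15.7 and 9.37 CPM in TKO mice 1 to 3. This gene encodes the catalytic subunit of the thymoproteasome, which only cortical epithelial cells make. The wt mice spanned 8.49-fold from lowest to highest, more than any other member in wt, and enclosed all 4 Zmat3-/- and all 3 TKO mice. Against wt the log2FC was −0.091 (SE 0.554, adjusted p = 0.944) in Zmat3-/- mice, and it was 1.37 (SE 0.277, adjusted p = 0.00487) without wt mice 1 and 2. *Ccl25* stood at 43.7, 43.4, 31.3 and 44.4 CPM in wt mice 1 to 4, 31.98, 24.4, 26.9 and 24.8 CPM in Zmat3-/- mice 1 to 4 and 31.2, 30.3 and 14.9 CPM in TKO mice 1 to 3. *Ccl25* encodes the chemokine that draws CCR9-bearing progenitors and thymocytes. Wt mice 1, 2 and 4 lay together above all others and wt mouse 3 lay within the Zmat3-/- range, so that the groups just overlapped, by Zmat3-/- mouse 1. The means were 40.7 ± 6.26 CPM on average (SD, n = 4) and 27.0 ± 3.49 CPM on average (SD, n = 4), for a log2FC of −0.59 (SE 0.146, adjusted p = 0.110) and a 95% interval of −0.92 to −0.26. DESeq2 gave −0.59 (SE 0.164, adjusted p = 0.00841), and leaving out wt mice 1 and 2 gave −0.48 (SE 0.149, adjusted p = 0.0320). The direction was lower in Zmat3-/- mice under each of 19 alternatives.

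*Krt8* was counted at 55.2, 47.2, 9.99 and 15.6 CPM in wt mice 1 to 4, 41.8, 36.1, 31.2 and 30.5 CPM in Zmat3-/- mice 1 to 4 and 37.1, 38.8 and 17.4 CPM in TKO mice 1 to 3. KRT8 pairs with KRT18 in the filaments of simple epithelia and marks the cortex. Both wt mice 3 and 4 lay below the whole Zmat3-/- range and both wt mice 1 and 2 above it. The fitted log2FC was 0.12 (SE 0.492, adjusted p = 0.912) with all mice and 1.45 (SE 0.190, adjusted p = 0.000531) without wt mice 1 and 2. *Krt5* read 13.4, 14.4, 4.13 and 6.50 CPM in wt mice 1 to 4, 14.7, 9.75, 7.65 and 8.46 CPM in Zmat3-/- mice 1 to 4 and 12.6, 12.6 and 4.85 CPM in TKO mice 1 to 3. Wt mice 3 and 4 again lay below all Zmat3-/- mice, and wt mice 1 and 2 within their range. *Krt5*, a keratin of the medulla and of basal epithelia, had a log2FC of 0.079 (SE 0.401, adjusted p = 0.933), and 0.94 (SE 0.288, adjusted p = 0.0312) without that pair. *Epcam* amounted to 14.9, 15.5, 7.12 and 11.5 CPM in wt mice 1 to 4, 10.1, 7.21, 8.28 and 8.21 CPM in Zmat3-/- mice 1 to 4 and 8.66, 13.1 and 7.43 CPM in TKO mice 1 to 3. Wt mice 1, 2 and 4 lay above and wt mouse 3 just below the Zmat3-/- mice. EPCAM is an adhesion molecule on epithelial surfaces that is most abundant in the medulla. Its log2FC was −0.53 (SE 0.244, adjusted p = 0.332), and −0.14 (SE 0.205, adjusted p = 0.642) without the pair, which is nearer to 0.

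An exon length offset, which takes the trend of each library's values over exon length out of the fit, gave the short *Krt8*, *Krt5* and *Epcam* log2FCs of 0.44, 0.31 and −0.35 (adjusted p of 0.541, 0.613 and 0.322), and the long *Ccl25*, *Col1a2* and *Col3a1* −0.73, 0.91 and 1.02 (adjusted p of 0.0910, 0.353 and 0.198). With 1 surrogate variable in the edgeR fit, 7 of 10 members passed the adjusted p, where 37.8% of all genes did, and none was called (1.59%). These 7 were *Foxn1*, *Krt8*, *Col1a1*, *Col1a2* and *Col3a1*, higher in Zmat3-/- mice, and *Ccl25* and *Epcam*, lower. Whether the exon length of a library or its content of epithelial RNA set the wt values was not tested.

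**Figure D2:**
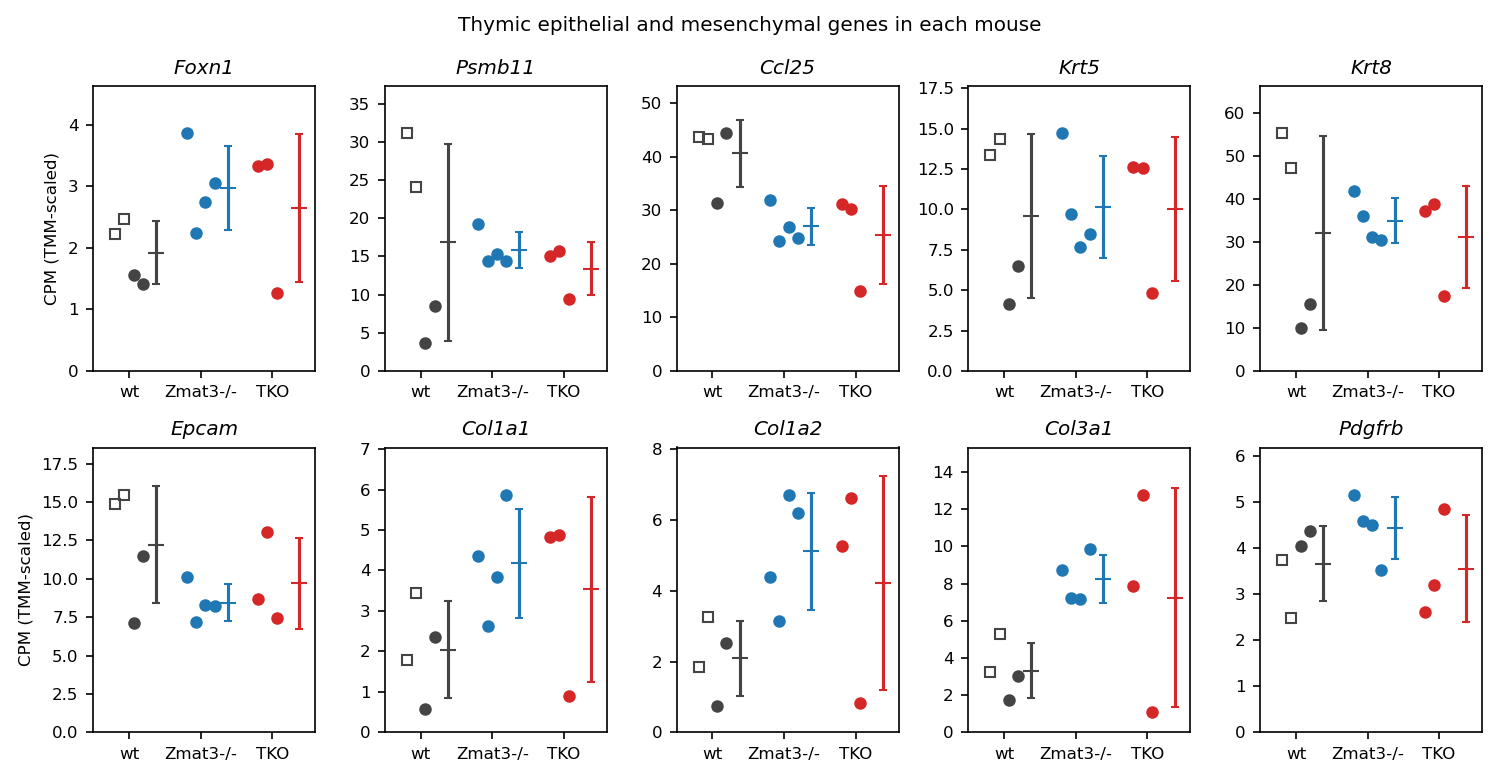
Level of each of the 10 genes (y axis, CPM with TMM factors, from 0) in every mouse, by genotype on the x axis, with open squares for wt mice 1 and 2 and the mean with its SD to the right of each group. *Psmb11* and *Krt8* show wt mice 1 and 2 above and wt mice 3 and 4 below the Zmat3-/- mice, and *Col3a1* shows all 4 Zmat3-/- mice, from 7.18 CPM, above the highest wt mouse at 5.28 CPM.

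*Col3a1* was counted at 3.23, 5.28, 1.77 and 3.03 CPM in wt mice 1 to 4, 8.73, 7.21, 7.18 and 9.89 CPM in Zmat3-/- mice 1 to 4 and 7.90, 12.8 and 1.09 CPM in TKO mice 1 to 3. The lowest Zmat3-/- mouse lay above the highest wt mouse. *Col3a1*, the single chain of type III collagen, was the only member without overlap (7.04% of all genes tested were higher without overlap), with means of 3.33 ± 1.45 CPM on average (SD, n = 4) and 8.25 ± 1.31 CPM on average (SD, n = 4). Its log2FC was 1.30 (SE 0.308, adjusted p = 0.103) with a 95% interval of 0.60 to 2.00. DESeq2 gave 1.31 (SE 0.321, adjusted p = 0.00181), and without wt mice 1 and 2 edgeR gave 1.77 (SE 0.250, adjusted p = 0.000786).

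*Col1a1* and *Col1a2* encode the chains of type I collagen, the main fibre of the capsule. *Col1a2* was counted at 1.84, 3.25, 0.759 and 2.52 CPM in wt mice 1 to 4, 4.40, 3.15, 6.71 and 6.20 CPM in Zmat3-/- mice 1 to 4 and 5.26, 6.62 and 0.819 CPM in TKO mice 1 to 3. Only Zmat3-/- mouse 2, at 3.15 CPM, lay within the wt range. The log2FC was 1.28 (SE 0.428, adjusted p = 0.199), and 1.62 (SE 0.450, adjusted p = 0.0206) without wt mice 1 and 2. *Col1a1* was at 1.78, 3.45, 0.590 and 2.36 CPM in wt mice 1 to 4, 4.35, 2.63, 3.84 and 5.87 CPM in Zmat3-/- mice 1 to 4 and 4.82, 4.87 and 0.904 CPM in TKO mice 1 to 3. It overlapped in the same way, by Zmat3-/- mouse 2, with a log2FC of 1.02 (SE 0.474, adjusted p = 0.338), and 1.48 (SE 0.482, adjusted p = 0.0394) without that pair. The ratio of *Col1a1* to *Col1a2* in CPM kept to 0.572 to 1.10 over the 11 mice, a 1.93-fold span, while *Col1a1* alone spanned 5.84-fold among the wt mice.

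*Pdgfrb* was counted at 3.74, 2.49, 4.05 and 4.37 CPM in wt mice 1 to 4, 5.15, 4.58, 4.51 and 3.52 CPM in Zmat3-/- mice 1 to 4 and 2.62, 3.19 and 4.85 CPM in TKO mice 1 to 3. PDGFRB, the receptor for PDGF-B on pericytes and fibroblasts, did not follow the collagen genes. TKO mouse 3, lowest of its group for the other 9 genes, was highest for *Pdgfrb*, and wt mouse 2, highest of its group for the 3 collagen genes, was lowest. The log2FC in Zmat3-/- mice was 0.28 (SE 0.221, adjusted p = 0.553), with a 95% interval of −0.22 to 0.79, and 0.084 (SE 0.207, adjusted p = 0.784) without wt mice 1 and 2.

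Between TKO and wt mice no member was called by edgeR (32 of 13260 genes, 0.241%), none passed the adjusted p at any fold (0.294%), and 1 of 10, *Ccl25*, had an unadjusted p below 0.05, against 10.3% of all genes. DESeq2 also called none (0.777%) and put none past the adjusted p (2.87%). Of the 10, 5 had a higher mean in TKO mice (45.8% of all genes), and none was higher without overlap (6.78%). This comparison and that of Zmat3-/- with wt mice share the 4 wt mice. *Ccl25* was lower in all 3 TKO mice, at 14.9 to 31.2 CPM, than in any wt mouse, at 31.3 to 44.4 CPM (7.02% of all genes tested were lower without overlap), although TKO mouse 1 and wt mouse 3 nearly met. Its log2FC was −0.69 (SE 0.283, adjusted p = 0.462) with a 95% interval of −1.35 to −0.035. Without TKO mouse 3 it was −0.41 (SE 0.196, adjusted p = 0.768). *Foxn1* had a log2FC of 0.44 (SE 0.423, adjusted p = 0.701), *Krt5* of 0.041 (SE 0.512, adjusted p = 0.978) and *Krt8* of −0.060 (SE 0.608, adjusted p = 0.972). That of *Psmb11* was −0.36 (SE 0.655, adjusted p = 0.833) and that of *Epcam* −0.36 (SE 0.322, adjusted p = 0.685). The intervals of *Psmb11* (−1.87 to 1.16) and *Krt8* (−1.47 to 1.35) were wide. The TKO log2FC without wt mice 1 and 2 was 0.80 (SE 0.497, adjusted p = 0.317) for *Foxn1*, 0.89 (SE 0.443, adjusted p = 0.224) for *Krt5* and −0.59 (SE 0.318, adjusted p = 0.256) for *Ccl25*. That of *Epcam* turned to 0.035 (SE 0.303, adjusted p = 0.951).

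The collagen genes were higher in TKO mice 1 and 2 than in every wt mouse. TKO mouse 3 had 0.904 CPM of *Col1a1*, 0.819 CPM of *Col1a2* and 1.09 CPM of *Col3a1*, beside 0.590, 0.759 and 1.77 CPM in wt mouse 3. Their log2FCs against wt were 0.76 (SE 0.702, adjusted p = 0.690) for *Col1a1*, 0.98 (SE 0.715, adjusted p = 0.639) for *Col1a2* and 1.09 (SE 0.719, adjusted p = 0.610) for *Col3a1*. *Pdgfrb* gave −0.055 (SE 0.309, adjusted p = 0.951). Without TKO mouse 3 the values were 1.23 (SE 0.599, adjusted p = 0.768), 1.49 (SE 0.526, adjusted p = 0.693) and 1.62 (SE 0.435, adjusted p = 0.562) for the collagen genes, none past the adjusted p (0.131% of all genes), with 2 TKO mice left. These 3 genes and *Foxn1*, at 0.79 (SE 0.350, adjusted p = 0.759), were then higher without overlap and *Ccl25* lower, where 10.4% of all genes were so in either direction alone, and 6 of 10 members were higher (45.3%). None was called (0.124%). Without wt mice 1 and 2 again no member was called (1.81% of all genes) or passed the adjusted p (8.15%), and 8 of 10 were higher (50.7%), *Psmb11* and *Krt8* without overlap (24.1%), and *Ccl25* was lower without overlap (23.8%). *Krt8* then came to 1.26 (SE 0.372, adjusted p = 0.0746) and *Psmb11* to 1.11 (SE 0.383, adjusted p = 0.109), both turned to higher in TKO mice. *Col3a1* came to 1.55 (SE 0.873, adjusted p = 0.276), *Col1a2* to 1.32 (SE 0.867, adjusted p = 0.344), *Col1a1* to 1.22 (SE 0.819, adjusted p = 0.356) and *Pdgfrb* to −0.25 (SE 0.308, adjusted p = 0.627).

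**Figure D3:**
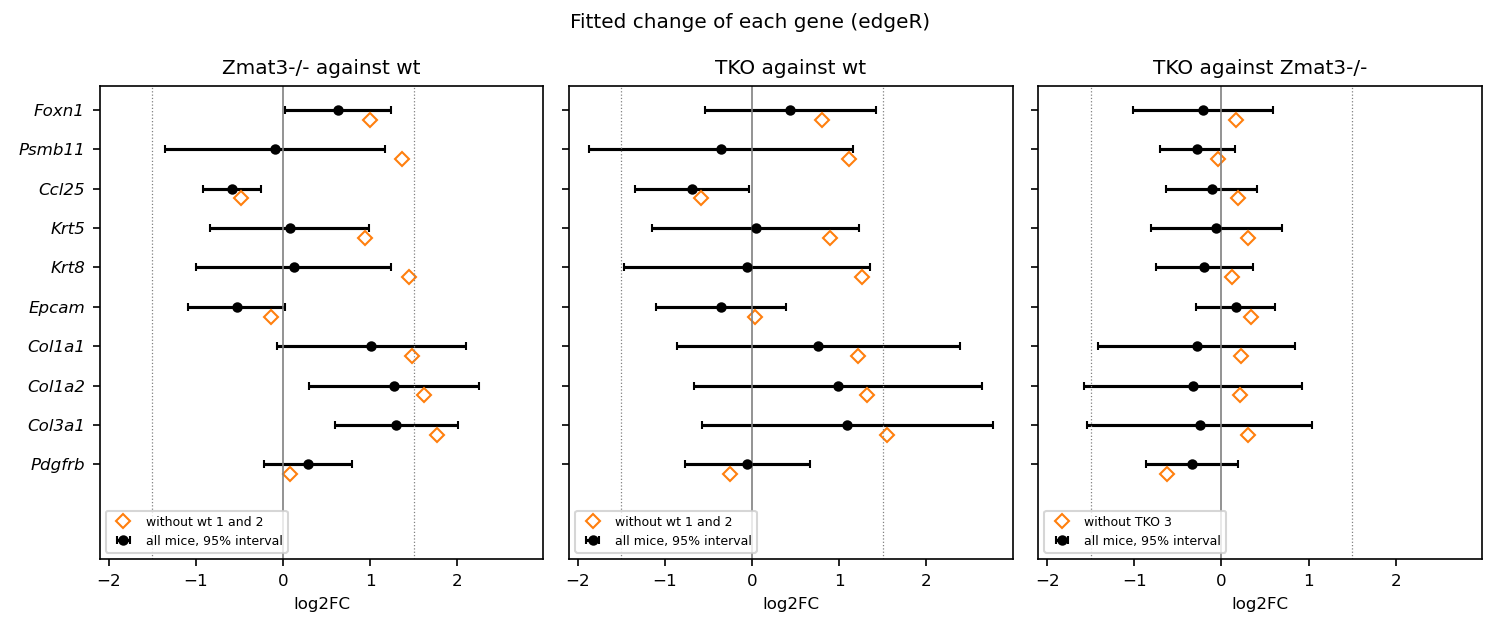
Fitted log2FC (x axis) of the 10 genes in the 3 comparisons, with 95% intervals from edgeR over all mice (black) and the value without wt mice 1 and 2, or without TKO mouse 3 in the right panel (orange). Dotted lines stand at the log2FC of 1.5 that a call requires. No black point crosses them, and *Psmb11* goes from −0.091 to 1.37 and *Krt8* from 0.12 to 1.45 in the left panel.

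TKO and Zmat3-/- mice were compared for what the further loss of PUMA and p21 adds. No member was called (16 of 13124 genes, 0.122%), none passed the adjusted p (0.221%) and none had an unadjusted p below 0.05 (4.5%), and DESeq2 called none (0.145%) and put none past the adjusted p (0.556%). The groups overlapped for all 10 genes, where 3.21% of all genes were higher and 2.44% lower without overlap, and log2FCs ran from −0.34 (*Pdgfrb*, SE 0.236) to 0.16 (*Epcam*, SE 0.205), with every adjusted p at or above 0.983. Of the 10, 1 had a higher mean in TKO mice (47.3% of all genes tested did). This turned on TKO mouse 3: without it, 8 of 10 had a higher mean in TKO mice (51.0% of all genes), *Col3a1* at 0.31 in place of −0.25 and *Krt5* at 0.31 in place of −0.057, with none called (0.135%) or past the adjusted p (0.255%) and none higher without overlap (6.62%). *Pdgfrb* went the other way, to −0.63 (SE 0.233, adjusted p = 0.701), and TKO mice 1 and 2 lay below all 4 Zmat3-/- mice (7.55% of all genes did). The 95% interval of the difference was widest for *Col3a1*, −1.55 to 1.05, and narrowest for *Psmb11*, −0.71 to 0.16.

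Mice of 1 genotype differed in these genes more than in most genes of like level. Among 5600 other genes whose mean lay within the members' range, the highest mouse exceeded the lowest by a median of 1.73-fold in wt, 1.26-fold in Zmat3-/- and 1.29-fold in TKO mice. The median over the 10 members was 3.23-fold, 1.43-fold and 2.42-fold. In wt mice 9 of 10 members lay above the median of the other genes and 5 above their 90th percentile of 3.45-fold, with *Psmb11* at 8.49-fold and *Ccl25* lowest at 1.42-fold. In TKO mice 7 lay above the 90th percentile of 1.89-fold, led by *Col3a1* at 11.7-fold, and in Zmat3-/- mice 4 lay above that of 1.65-fold. The same mice recurred at the extremes: wt mouse 3 was lowest of its genotype for 8 of the 10 genes and TKO mouse 3 for 9. Wt mice 1 and 2 both exceeded wt mice 3 and 4 in 5 of 6 epithelial genes, all but *Ccl25*, and in 1 of 4 mesenchymal genes, *Col3a1*.

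Genes that work with the members were read beside them. *Krt18*, the filament partner of *Krt8*, was counted at 47.4, 38.2, 10.7 and 15.2 CPM in the wt mice, and the ratio of *Krt8* to *Krt18* in CPM kept to 0.933 to 1.40 over all 11 mice although *Krt8* itself spanned 5.53-fold among wt mice. *Krt14*, the partner of *Krt5*, had 3.77, 3.91, 0.506 and 1.30 CPM in the wt mice, and *Krt5* was 3.55 to 10.6 times as high as *Krt14*, so that this pair held together less closely. *Psmb11* was 2.35 to 13.9 times and *Ccl25* 8.11 to 31.3 times as high as *Foxn1*. The second ratio was 17.6 to 31.3 in wt mice and 8.11 to 11.8 in the mutant mice, without overlap. *Ccr9*, the receptor for CCL25, which thymocytes themselves express, ranged from 425 to 1019 CPM, and its log2FC was 0.27 (SE 0.252, adjusted p = 0.618) in Zmat3-/- and 0.40 (SE 0.283, adjusted p = 0.632) in TKO against wt mice. The first turned to −0.089 (adjusted p = 0.524) without wt mice 1 and 2. *Psmb5*, the proteasome subunit whose place *Psmb11* takes, had −0.46 (SE 0.332, adjusted p = 0.532) and −0.49 (SE 0.386, adjusted p = 0.654). Both turned without wt mice 1 and 2, to 0.32 (SE 0.0965, adjusted p = 0.0298) and 0.29 (SE 0.120, adjusted p = 0.157), higher without overlap, as were 26.7% and 24.1% of all genes. With all mice none of the 6 partner genes tested passed the adjusted p by edgeR without a surrogate variable or by DESeq2, and none had an unadjusted p below 0.05. Between Zmat3-/- and wt mice 3 of 6 passed without wt mice 1 and 2 (33.0% of all genes), among them *Krt18* at 1.26 (SE 0.141, adjusted p = 0.000219), and 4 of 6 with 1 surrogate variable (37.8%). In TKO against wt mice 1 of 6, *Ccr9*, passed with 1 surrogate variable (17.9%). The list's median log2FC turned without wt mice 1 and 2, from −0.18 to 0.31 in Zmat3-/- and from −0.49 to 0.29 in TKO mice.

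On the mesenchymal side, the ligands *Pdgfa* and *Pdgfb* had log2FCs of −0.56 (SE 0.254, adjusted p = 0.325) and 0.26 (SE 0.298, adjusted p = 0.678) in Zmat3-/- against wt mice. *Pdgfra*, the receptor of fibroblast progenitors, stayed below the low count filter in that comparison. *Serpinh1*, the collagen chaperone, had 0.50 (SE 0.355, adjusted p = 0.517). *Pdgfc*, a further ligand, was higher in every Zmat3-/- mouse than in any wt mouse, as were 7.04% of all genes. Its log2FC was 0.86 (SE 0.237, adjusted p = 0.134), and 0.85 (SE 0.294, adjusted p = 0.0487) without wt mice 1 and 2. Of the 13 genes of PDGF signalling and collagen processing, 10 were tested. With all mice 6 of them were higher (46.8% of all genes), with a median log2FC of 0.26. None passed the adjusted p by edgeR without a surrogate variable, and 1 had an unadjusted p below 0.05 (16.1%). Only *Pdgfc* passed the adjusted p by DESeq2 (8.04%) and with 1 surrogate variable (37.8%). Without wt mice 1 and 2, 5 of 10 were higher (49.6%), with a median of 0.066, and 1 passed the adjusted p (33.0%). With all mice none of those tested passed the adjusted p in the TKO comparisons by either tool. *P4ha1*, a subunit of the enzyme that hydroxylates collagen proline, had the smallest p of them between TKO and Zmat3-/- mice, at 0.35 (SE 0.149, adjusted p = 0.983).

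Further genes of the same cell types were counted beside the members. In a list of 20 fibroblast and matrix genes, 16 of 18 tested were higher in Zmat3-/- than in wt mice, with a median log2FC of 0.82 against −0.026 over all genes, and 11 had an unadjusted p below 0.05 (16.1% of all genes). The number past the adjusted p depended on the fit. It was 0 by edgeR without a surrogate variable, 6 by DESeq2 (8.04%) and 13 by edgeR with 1 surrogate variable (37.8%), which called 3 (1.59%). In 6 of the 18 the Zmat3-/- mice were all above the wt mice (7.04%). *Postn*, a matrix protein of activated fibroblasts, had the smallest p, with 1.67 (SE 0.345, adjusted p = 0.0711) and means of 2.56 ± 1.18 CPM in wt and 8.20 ± 0.997 CPM in Zmat3-/- mice (SD, n = 4 each). It was called by DESeq2, at 1.68 (SE 0.351, adjusted p = 0.000129), and with 1 surrogate variable, at 1.74 (SE 0.272, adjusted p = 0.000657). Without wt mice 1 and 2, 13 of 18 passed the adjusted p as higher and 1 as lower (33.0% of all genes in either direction), and 5 were called (3.13%), *Postn* among them. In TKO mice 14 of 15 tested were higher than in wt, with a median of 0.54, and none passed by edgeR without a surrogate variable or by DESeq2 or had an unadjusted p below 0.05. With 1 surrogate variable 1 of 15, *Fn1*, passed (17.9%). *Fn1* was highest in wt mouse 3 (23.8 CPM) and TKO mouse 3 (39.9 CPM), each the lowest of its genotype for the 3 collagen genes. Without wt mice 1 and 2 the median of the list was 0.90 with 17 of 18 higher. Without TKO mouse 3 it was 0.99, again with 17 of 18 higher. Between TKO and Zmat3-/- mice 3 of 18 were higher, with a median of −0.40, which became 14 of 18 and 0.10 without TKO mouse 3. *Fn1*, which encodes fibronectin, had the smallest p there, at 1.23 (SE 0.370, adjusted p = 0.746), and 0.54 (SE 0.243, adjusted p = 0.795) without TKO mouse 3.

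Cortical epithelial genes (12, among them *Prss16*, *Ly75* and *Ctsl*) had a median log2FC of 0.20 in Zmat3-/- against wt mice, 8 of 12 higher, and 0.61 with 11 of 12 higher without wt mice 1 and 2. *Kitl*, which encodes stem cell factor, came first by p, at 1.21 (SE 0.389, adjusted p = 0.183). Without that pair it was called, at 1.66 (SE 0.438, adjusted p = 0.0169), and 5 of 12 cortical genes passed the adjusted p (33.0% of all genes) and 3 were called (3.13%). The other two called were *Il7* and *Pax1*, named here after their values were seen. Medullary genes (12, among them *Aire*, *Fezf2* and *Trp63*) had a median of −0.13, 3 of 11 tested higher, and 0.36 with 9 of 11 higher and 1 past the adjusted p without that pair. In TKO against wt mice the cortical and medullary medians were −0.031 and −0.20, and turned to 0.44 (7 of 11 higher) and 0.33 (8 of 11 higher) without that pair, and to 0.23 (11 of 12 higher) and 0.085 (7 of 11 higher) without TKO mouse 3. *Aire*, the regulator of self-antigen expression in the medulla, was lower in every TKO mouse than in any wt mouse, as were 7.02% of all genes. Its log2FC was −0.69 (SE 0.337, adjusted p = 0.524). None of these genes passed the adjusted p with all mice by edgeR without a surrogate variable or by DESeq2. With 1 surrogate variable in Zmat3-/- against wt mice 5 of 12 cortical genes passed as higher, with *Kitl* at 1.32 (SE 0.342, adjusted p = 0.0110), and 1 of 11 medullary genes as lower (37.8% of all genes). An unadjusted p below 0.05 was found for 1 of each list in Zmat3-/- (16.1% of all genes) and none in TKO mice (10.3%) against wt. *Cldn4*, a tight junction protein of the medulla, gave −0.48 (SE 0.157, adjusted p = 0.192) in Zmat3-/- mice. It was lower in every Zmat3-/- mouse than in any wt mouse, as were 6.91% of all genes. *Cldn4* was the medullary gene that passed with 1 surrogate variable.

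**Figure D4:**
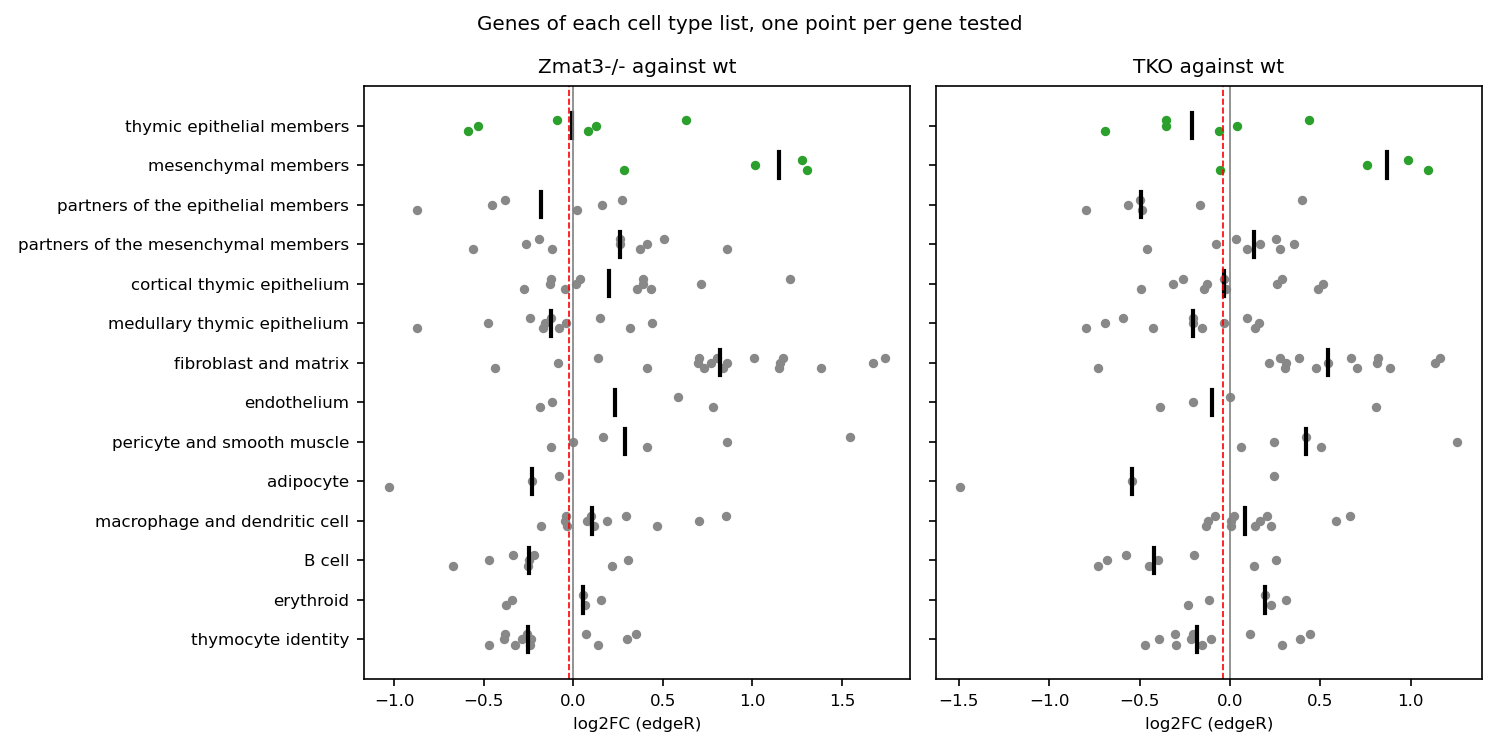
Log2FC (x axis, edgeR) of each gene tested in the 2 member lists (green) and 12 further lists (grey), with the median of each list as a black bar and the median of all genes tested as a red dashed line, for Zmat3-/- (left) and TKO (right) against wt mice. The mesenchymal members and the fibroblast and matrix genes lie mostly to the right, with medians of 1.15 and 0.82 on the left, and the epithelial lists lie around 0 with all mice, as plotted. The epithelial members' median in Zmat3-/- mice without wt mice 1 and 2 was 0.97.

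Markers of other cells that a mashed thymus could hold were counted in the same libraries. Pericyte and smooth muscle genes summed to 47.4 to 81.1 CPM in wt, 77.1 to 90.5 CPM in Zmat3-/- and 72.8 to 99.2 CPM in TKO mice, with the lowest sums in wt mice 1 and 2. Most of these counts came from *Notch3*, at 47.6 CPM on average in wt, 63.2 CPM in Zmat3-/- and 68.0 CPM in TKO mice. The sum therefore mostly followed that 1 gene, and which cells its counts came from was not tested. The highest sum, 99.2 CPM, was that of TKO mouse 3, which was lowest of its genotype for the 3 collagen genes. *Myh11*, smooth muscle myosin, was the only gene of the 131 in the further lists that edgeR without a surrogate variable called with all mice, in Zmat3-/- against wt mice at 1.54 (SE 0.271, adjusted p = 0.0481). It lost the call when any 1 mouse was left out (adjusted p of 0.0639 to 0.188), with the replicate block (0.192), without a filter on low counts (0.102), with edgeR's own low count filter (0.0548) and under the exon length offset, at 1.37 (SE 0.333, adjusted p = 0.0723). It kept the call with 1 surrogate variable, at 1.65 (SE 0.234, adjusted p = 0.000381), by DESeq2, at 1.54 (SE 0.273, adjusted p = 2.58e-06), and without wt mice 1 and 2, at 1.95 (SE 0.305, adjusted p = 0.00137), where *Rgs5*, a pericyte gene named after its values were seen, was called too. *Mrc1*, a scavenger receptor of resident macrophages, was higher by 0.85 (SE 0.147, adjusted p = 0.0454), and its adjusted p lay between 0.0690 and 0.155 with any 1 mouse left out. It passed by DESeq2, at 0.85 (SE 0.163, adjusted p = 1.58e-05), and without wt mice 1 and 2, at 0.88 (SE 0.148, adjusted p = 0.00193). The 12 macrophage and dendritic cell genes summed to 223 to 417 CPM in wt, 308 to 429.5 CPM in Zmat3-/- and 171 to 486 CPM in TKO mice, with TKO mouse 3 lowest. In Zmat3-/- against wt mice 8 of 12 were higher, with a median log2FC of 0.11. With wt mice 1 and 2 left out, 11 of 12 were higher, with a median of 0.58, and 8 passed the adjusted p, beside 49.6% of all genes higher and 33.0% past it. Endothelial genes summed to 108 to 147 CPM, nearly all of it from *Pecam1*, which also marks some blood cells and stood at 128 CPM on average in wt, 117 CPM in Zmat3-/- and 112 CPM in TKO mice. Of the 12 endothelial genes 7 lay below the low count filter. Adipocyte genes summed to 4.27 to 19.8 CPM, with 5 of 8 below that filter, and B cell genes to 55.7 to 131 CPM. No gene in any list was at 0 in all mice. Erythroid genes varied most, from 867 to 8697 CPM, both in wt mice. Leaving out wt mice 1 and 2 turned the median log2FC of some lists. In Zmat3-/- against wt mice it went from −0.25 to 0.16 for B cell genes and from 0.055 to −0.73 for erythroid genes. In TKO against wt mice it went from 0.19 to −0.57 for erythroid and from −0.10 to 0.34 for endothelial genes. The part of these cells in the members' differences was not tested.

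In these lists the genes of smallest p were otherwise *Kdr* of endothelium, with a log2FC of 0.78 (SE 0.426, adjusted p = 0.406), and the adipocyte gene *Cfd*, with −1.03 (SE 0.319, adjusted p = 0.168), in Zmat3-/- against wt mice. *Cfd* passed the adjusted p by DESeq2, at −1.03 (SE 0.339, adjusted p = 0.0340), with 1 surrogate variable, at −1.05 (SE 0.287, adjusted p = 0.0143), and without wt mice 1 and 2, at −1.19 (SE 0.350, adjusted p = 0.0258). *Cd79a* of B cells had −0.67 (SE 0.337, adjusted p = 0.368), the haemoglobin gene *Hba-a2* −0.38 (SE 0.803, adjusted p = 0.832) and *Cd3e* of thymocytes −0.47 (SE 0.109, adjusted p = 0.0966). *Cd79a* turned without wt mice 1 and 2, to 0.089 (SE 0.172, adjusted p = 0.722), and passed as lower with 1 surrogate variable, at −0.44 (SE 0.143, adjusted p = 0.0325). *Cd3e* passed by DESeq2, at −0.47 (SE 0.0976, adjusted p = 9.82e-05), with 1 surrogate variable, at −0.45 (SE 0.0595, adjusted p = 0.000238), under the exon length offset, at −0.44 (SE 0.0825, adjusted p = 0.0381), and without wt mice 1 and 2, at −0.39 (SE 0.0642, adjusted p = 0.00165). DESeq2 put 3 of 12 thymocyte genes past it as lower (8.04%). With 1 surrogate variable 6 of 12 passed as lower and 2 as higher (37.8% of all genes in either direction). Those higher were *Rag1*, at 0.33 (SE 0.0637, adjusted p = 0.00230), and *Themis*, at 0.33 (SE 0.0586, adjusted p = 0.00133), named here after their values were seen. By edgeR with all mice 4 of 12 were higher and 8 lower. *Hba-a2* ran from −0.96 to 0.86 with 1 mouse left out. The Zmat3-/- mice lay below the wt range for *Cd3e*, which encodes a chain of the T cell receptor complex, and for 4 of the 12 thymocyte genes in all (6.91% of all genes tested).

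The genes most like the epithelial sum over the 11 mice, by Pearson correlation of log2 CPM among 13512 genes and leaving out the members, were *Fxyd2* (r = 0.975), *H2-Ab1* (0.973), *Fcer1g* (0.969), *Prr13* (0.967), *Tmem176b* (0.967), *Mt1* (0.965), *Ctsl* (0.965) and *Krt14* (0.965). *Ctsl*, a protease of cortical epithelium, and *Krt14* are in the epithelial lists, *H2-Ab1* is an MHC class II chain of antigen-presenting cells, and *Fcer1g* is an adaptor of myeloid cells. Those most like the mesenchymal sum were *C3* (0.984), *Hey1* (0.969), *App* (0.965), *Postn* (0.962), *Sparc* (0.958), *Fstl1* (0.957), *Col6a1* (0.957) and *Tppp* (0.955). *Postn*, *Sparc* and *Col6a1* are matrix genes of the fibroblast list, and *C3*, a complement component, ran from 15.8 to 70.6 CPM. All points share library, depth and mouse, so these values describe the 11 libraries and carry no test.

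Positions and possible sharing of reads limit single genes. On GRCm38 *Foxn1* (ENSMUSG00000002057.4) lies on the minus strand of chromosome 11 from 78357577 to 78386558, *Psmb11* (ENSMUSG00000072423.5) on the plus strand of chromosome 14 from 54621433 to 54629556, and *Ccl25* (ENSMUSG00000023235.14) on the plus strand of chromosome 8 from 4325210 to 4360020. *Krt5* (ENSMUSG00000061527.7) and *Krt8* (ENSMUSG00000049382.10) lie on the minus strand of chromosome 15 from 101707070 to 101712898 and from 101996698 to 102004482. *Epcam* (ENSMUSG00000045394.9) is on the plus strand of chromosome 17 from 87635979 to 87651129. *Col1a1* (ENSMUSG00000001506.10), on the plus strand of chromosome 11 from 94936224 to 94953042, *Col1a2* (ENSMUSG00000029661.16), on the plus strand of chromosome 6 from 4504814 to 4541544, and *Col3a1* (ENSMUSG00000026043.18), on the plus strand of chromosome 1 from 45311538 to 45349706, are on separate chromosomes. *Pdgfrb* (ENSMUSG00000024620.11) is on the plus strand of chromosome 18 from 61045150 to 61085061. *Ccl25* overlaps *Elavl1*, *Krt5* overlaps *Gm44323* and *Krt8* overlaps *Gm36026*, each on the other strand, and the library kit as named does not mark strand, so reads of such partners cannot be told apart. *Gm44323* had no counts and *Gm36026* had 4 at most. *Col3a1* shares sequence with *Gm47302* on its own strand. Of the 31-base words in *Krt8* transcripts 36% occur in other genes, 32.2% in the pseudogene *Krt8-ps*, which was given 1 count in all, and of those of *Krt5* 15.8%, with 9.46% in *Krt6a*. For the other members the share was at most 5.45%.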

How the data were processed

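RNA-seq counts from thymocytes of 4 wt, 4 Zmat3-/- and 3 TKO mice were used. The authors ran nf-core/rnaseq with Salmon on GRCm38.p6 and deposited estimated counts per gene, whole numbers without normalization, 1 column per mouse. Their notes also name bcl2fastq and DESeq2 1.40.0. Of 54418 genes, 54166 were matched to GENCODE M21 and 252 were not. The methods name a later GENCODE release, so some models may differ. Groups and replicate numbers came from the labels, which do not say more on litters or dates, so p-values measure the spread between these mice.

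Pairs of genotypes were tested with edgeR 4.0.16 (R 4.3.3) by the quasi-likelihood F-test after TMM, two-sided, with Benjamini-Hochberg adjustment over all genes tested. A gene was tested if the number of mice with 20 counts, at the depth of the shallowest library, reached the size of the smaller group. Left out were *Xist*, genes of chromosome Y, rRNA genes and immunoglobulin genes that code for no protein. Thresholds followed the study, which used DESeq2 with sex and surrogate variables. Here DESeq2 1.42.0 was an alternative without either, and 1 surrogate variable (sva 3.50.0), the *Xist* level, other filters and scalings and leaving out each mouse were alternatives in edgeR. SE is the absolute log2FC over the square root of F. Totals of 17669715 to 80207003 counts set the counting error. Fits were checked on simulated counts.

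Members and lists were chosen with earlier results of these data known. Genes named from other lists were those past an adjusted p of 0.05 (at most 4) or else the gene of smallest p, and 8 partner genes by function. A further partner gene is not reported here. The 8 genes most like each sum were named as a description. The exon length offset and the fit without wt mice 1 and 2 were added after the data were seen.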

Additional observations from a re-analysis of the deposited data

Results flagged for a closer look

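Of 24 groups of 4 mice tested for a mouse far from the rest (10 genes and 2 sums, in wt and Zmat3-/- mice), 2 stood out, and chance alone marks about 1 in 20. *Ccl25* in wt mouse 3, at 31.3 CPM, lay far below the other wt mice, at 43.4 to 44.4 CPM. The summed level of the 6 epithelial genes in Zmat3-/- mouse 1, at 122 CPM, lay far above the other Zmat3-/- mice, at 89.5 to 94.0 CPM.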

How the results depend on the processing

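Over 540 settings of the 30 log2FCs of the members, 492 kept direction and call, 46 turned the direction and 2 gained a call, those of *Col1a2* (1.62) and *Col3a1* (1.77) in Zmat3-/- against wt mice without wt mice 1 and 2. No member had passed the adjusted p in the edgeR fit of all mice without covariates. The cause of these shifts was not tested. Members called numbered 0 in every setting of the 3 comparisons except 2 without wt mice 1 and 2 in Zmat3-/- against wt, and members past the adjusted p there numbered 3 with DESeq2, 7 with 1 surrogate variable and 8 without wt mice 1 and 2. All genes called between Zmat3-/- and wt mice were 43, with 123 by DESeq2, 73 with all 3 genotypes in one fit, 8 with the replicate block, 215 with 1 surrogate variable and 441 without wt mice 1 and 2. Between TKO and wt mice they were 32, with 103, 68, 16, 176 and 244 in the same order and 51 without a filter on low counts, and between TKO and Zmat3-/- mice 16, with 45 without that filter. With 1 mouse left out they ranged from 12 to 47, from 15 to 35 and from 14 to 18 in the 3 comparisons. The ratio of mean epithelial sums without wt mice 1 and 2 was 1.36 for Zmat3-/- and 1.27 for TKO against wt mice.

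The replicate numbers do not pair the mice by the labels, and deviations of same-numbered mice correlated at 0.0857 to 0.324 (Zmat3-/- and wt), 0.0706 to 0.386 (TKO and wt) and −0.00293 to 0.165 (TKO and Zmat3-/-). Log2FCs that turned direction came to 0.29 (*Psmb11*) and 0.028 (*Hba-a2*) for Zmat3-/- against wt, −0.031 (*Krt5*) and 0.019 (*Pdgfrb*) for TKO against wt and −0.23 (*Krt14*), −0.19 (*Pdgfa*) and −0.18 (*Pdgfb*) for TKO against Zmat3-/- with the replicate block. They came to 0.50 (*Psmb11*) for Zmat3-/- against wt, 0.28 (*Psmb11*), 0.47 (*Krt8*) and 0.26 (*Krt18*) for TKO against wt and 0.0058 (*Foxn1*), 0.057 (*Ccl25*), 0.20 (*Krt5*) and 0.041 (*Psmb5*) for TKO against Zmat3-/- with 1 surrogate variable. With the *Xist* level they came to 0.18 (*Psmb11*) for Zmat3-/- against wt, 0.22 (*Psmb11*), 0.44 (*Krt8*) and 0.23 (*Krt18*) for TKO against wt and 0.020 (*Krt5*) for TKO against Zmat3-/-, with the exon length offset to 0.29 (*Krt8*), 0.22 (*Krt18*) and 0.094 (*Serpinh1*) for TKO against wt and 0.025 (*Psmb5*) for TKO against Zmat3-/- and with no filter on low counts to 0.018 (*Pdgfrb*) for TKO against wt. Without wt mice 1 and 2 they came to 1.37 (*Psmb11*), 0.53 (*Krt14*), 0.089 (*Cd79a*), −0.089 (*Ccr9*) and 0.32 (*Psmb5*) for Zmat3-/- against wt and 1.11 (*Psmb11*), 1.26 (*Krt8*), 0.035 (*Epcam*), 0.19 (*Psmb8*), −0.061 (*Ly75*), −0.53 (*Alas2*), 0.59 (*Krt14*), 0.94 (*Krt18*), 0.29 (*Psmb5*) and 0.21 (*Serpinh1*) for TKO against wt. With 1 mouse left out, ranges that cross 0 were, for Zmat3-/- against wt, *Psmb11* −0.42 to 0.38, *Krt5* −0.17 to 0.33, *Krt8* −0.17 to 0.52, *Hba-a2* −0.96 to 0.86, *Krt18* −0.11 to 0.54. For TKO against wt they were *Psmb11* −0.69 to 0.12, *Krt5* −0.21 to 0.39, *Krt8* −0.36 to 0.34, *Pdgfrb* −0.34 to 0.15, *Alas2* −0.028 to 1.68, *Krt18* −0.44 to 0.21, *Serpinh1* −0.43 to 0.37. For TKO against Zmat3-/- they were *Foxn1* −0.46 to 0.17, *Ccl25* −0.32 to 0.19, *Krt5* −0.30 to 0.31, *Krt8* −0.37 to 0.12, *Epcam* −0.086 to 0.34, *Col1a1* −0.65 to 0.23, *Col1a2* −0.79 to 0.21, *Col3a1* −0.92 to 0.31, *Hba-a1* −0.043 to 0.76, *Krt14* −0.26 to 0.50, *Psmb5* −0.093 to 0.070, *Pdgfa* −0.55 to 0.54, *Pdgfb* −0.14 to 0.30.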
